A study of Mus musculus with 16 samples.

Results

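Collagen chain genes are the genes whose symbol reads Col, a type number, the letter a and a chain number, and all 44 such entries of the 24421 in the count table were taken. They were sorted by structure into 11 fibrillar chains, 8 basement membrane chains, 9 FACIT chains (fibril-associated collagens with interrupted triple helices), 6 beaded-filament chains of type VI, 3 short-chain network chains, 4 transmembrane chains and 3 others. Counts were high enough to test for 36 of the 44. The 8 left out were Col2a1, Col24a1, Col9a1, Col19a1, Col6a4, Col10a1, Col17a1 and Col25a1.

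Polyadenylated RNA from mouse ventricles was sequenced to ask how pressure overload changes the heart when junctophilin-2 cannot be cleaved by calpain. The 4 groups, with 4 libraries each, were WT TAC, WT sham, JP2CR TAC and JP2CR sham. TAC, trans-aortic constriction, narrows the aorta and raises the load on the left ventricle, while sham animals had a control operation. JP2CR mice were homozygous for a Jph2 allele without codons 563 to 568, in every cell, and the WT mice were wildtype littermates. All were C57BL/6N, labelled male, operated at 9 to 10 weeks of age and sampled 5 weeks later. The design gives 4 mice per group and ties no library to a named mouse, so a p-value reflects how the libraries of a group vary, which may be partly technical. Libraries are numbered by the replicate number in the labels, which carries no order.

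Collagens are trimers of chains wound into a triple helix, and they form most of the protein scaffold between heart cells. Fibrillar types I and III, made mainly by fibroblasts, bear tension, types V and XI regulate the width of fibrils, and FACIT chains sit on fibril surfaces. Type IV forms the sheet-like network of basement membranes around cardiomyocytes and capillaries, type VI forms beaded filaments next to it, and type VIII forms short-chain networks in vessel walls and activated matrix. Cardiac fibrosis is the accumulation of such matrix under load.

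Libraries held 9966782 to 16609732 counts, so 3 counts corresponded to 0.185 to 0.314 CPM (the count scaled to the size of the library, with TMM factors). Cardiomyocyte markers, which do not separate ventricle from atrium, were plain, with 8 of them summing to 64434 to 67899 CPM in WT TAC, against 85984 to 90786 CPM in WT sham, and to 64739 to 69666 CPM in JP2CR TAC, against 80931 to 103557 CPM in JP2CR sham. The ventricular light chain Myl2 ran from 5856 to 6395 CPM in WT TAC, against 7766 to 8417 in WT sham, and from 5686 to 6530.0 in JP2CR TAC, against 7743 to 9104 in JP2CR sham. Atrial markers were detected as well, and their sums are given beside Col4a6. Although all mice were labelled male, Xist, the RNA of the inactive X chromosome, stood at 140.4 CPM in JP2CR TAC 4, 189 CPM in JP2CR sham 3 and 196 CPM in JP2CR sham 4, against 0 to 0.265 CPM in the other 13 libraries. Y-linked genes had 0 counts in JP2CR sham 3 and 4 and 118 CPM in JP2CR TAC 4. The TAC libraries numbered 3 stood between libraries 1 and 2 of their own group for 98.2% of the genes that differed by over 2-fold between those libraries in WT TAC and 99.5% in JP2CR TAC, and for 28 and 27 of the 36 tested collagen chains. Other libraries did so too: WT sham 3 for 100% and WT sham 4 for 96.5% of the 57 genes so far apart between WT sham 1 and 2, and WT TAC 4 for 94.0% of the 166 in WT TAC, with 19, 20 and 21 of the 36 chains. The libraries named here were also fitted as a weighted sum of libraries 1 and 2 of their group. The mean squared misfit, relative to counting variance, was 1.33 for WT TAC 3 and 1.45 for JP2CR TAC 3. It was 1.40 for WT sham 4, 1.70 for WT sham 3 and 4.72 for WT TAC 4. The counts of collagen calls are also given without the 3 Xist-positive libraries and the TAC libraries numbered 3, 5 libraries in all. WT sham 3 and 4 were kept in those fits.

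Most collagen chains were more abundant after TAC in both genotypes, from the abundant types I, III and IV to scarce chains such as Col9a2, while 3 chains fell. In WT TAC over WT sham, 23 of the 36 tested chains rose and 3 fell at an adjusted p under 0.05 (edgeR quasi-likelihood test with Benjamini-Hochberg adjustment over all 13522 tested genes), against a background of 21.1% of all tested genes higher and 20.8% lower. In JP2CR TAC over JP2CR sham, 22 rose and 3 fell, against 20.7% higher and 20.7% lower. The median log2 fold change of the 36 chains was 0.56 in WT and 0.64 in JP2CR, against -0.000942 and -0.00421 over all tested genes. The 4 WT TAC libraries all lay above the 4 WT sham libraries for 23 chains and all below for 2, where 21% of all tested genes did so in each direction. In JP2CR the same held for 19 chains above and 1 below, where 16.8% and 17.3% of all tested genes did so. In 20 chains the rise was called in both genotypes, and in 3, Col4a6, Col6a6 and Col11a2, the fall was. The share of all tested genes called in both is not given here, so these counts have no background. The JP2CR falls of Col4a6 and Col11a2 were lost when certain single libraries were left out.

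**Figure D1:**
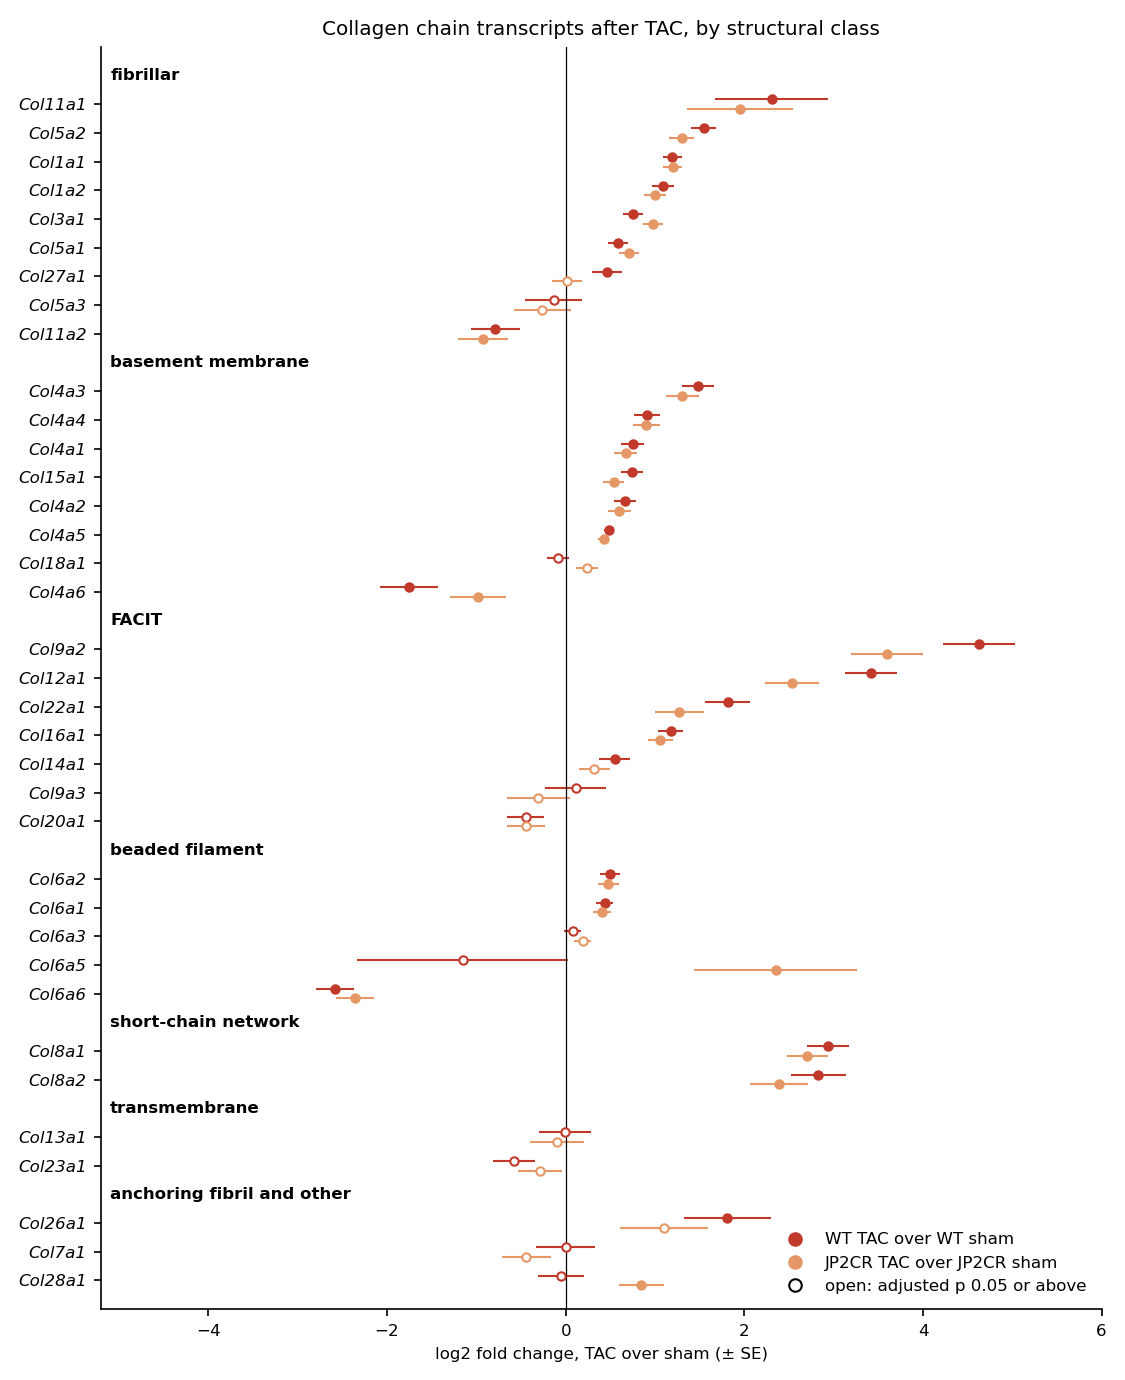
Log2 fold change of TAC over sham (horizontal axis) for each of the 36 tested collagen chains, grouped by structural class down the page, with WT as red and JP2CR as orange points; bars are ± 1 standard error and open points did not pass an adjusted p of 0.05. Of the FACIT chains only Col9a2, at 4.63 in WT and 3.60 in JP2CR, and Col12a1 lie beyond 2 in both genotypes, as do both short-chain chains, and Col6a6 lies farthest to the left at -2.58 and -2.36.

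Without the 3 Xist-positive libraries, 24 chains rose and 4 fell in WT and 23 rose and 3 fell in JP2CR, of 37 tested, where 22.8% and 23% of all tested genes were higher and lower in WT and 18.5% and 17.4% in JP2CR. Without the TAC libraries numbered 3, the counts were 22 and 3 in WT and 21 and 1 in JP2CR, where 18.1% and 17.7% of all tested genes were higher and lower in WT and 17.1% and 17% in JP2CR. Without all 5 libraries they were 23 and 4 in WT and 19 and 2 in JP2CR, where the shares of all tested genes were 20.2% and 19.5% in WT and 14.8% and 13.9% in JP2CR. In that fit the JP2CR rises of Col15a1 (0.48, adjusted p = 0.0639), Col22a1 (0.95, adjusted p = 0.0833), Col11a1 (1.82, adjusted p = 0.0764) and Col6a5 (1.99, adjusted p = 0.164) were not called. In JP2CR that fit kept only JP2CR sham 1 and 2 and JP2CR TAC 1 and 2, so it had less power than the full fit. These 3 alternatives were chosen after seeing the data. In bulk tissue, more RNA per cell and more cells of the type that makes it cannot be told apart.

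By class, the median change of the short-chain chains was the highest in both genotypes, and that of the FACIT chains came next with all libraries in the fit. In JP2CR the FACIT median did not keep that place: it was 0.98, against 0.99 for fibrillar chains, without the Xist-positive libraries, and 0.95, against 1.03 for the 3 other chains, without all 5. Of the fibrillar chains tested, 7 of 9 rose and 1 fell in WT (median log2 fold change 0.76), and 6 rose and 1 fell in JP2CR (0.98). Of the basement membrane chains, 6 of 8 rose and 1 fell in each genotype, with medians of 0.70 in WT and 0.57 in JP2CR. Of the FACIT chains, 5 of 7 rose in WT (median 1.18) and 4 of 7 in JP2CR (median 1.06), and none fell in either by this test. Of the beaded-filament chains, 2 of 5 rose and 1 fell in WT (median 0.08), and 3 rose and 1 fell in JP2CR (median 0.41). Both tested short-chain chains rose in both genotypes, with medians of 2.88 and 2.55, and neither of the 2 tested transmembrane chains passed the test. Among all tested genes, 21.1% were higher and 20.8% lower in WT, and 20.7% each way in JP2CR. The fall of 1 beaded-filament chain, 20% of those tested, was near that share in both genotypes. The classes hold few genes each and differences between their medians were not tested.

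To compare levels between genes of unequal length, CPM was divided by the length in kb of the longest coding transcript of each gene, and these values were summed by class. All collagen chains together summed to 897 ± 136 CPM per kb in WT TAC and 513 ± 31.0 in WT sham, and to 890.3 ± 110.4 in JP2CR TAC and 522 ± 42.0 in JP2CR sham (SD, n = 4 each). Collagen counts made up 0.534% ± 0.0888 of each library in WT TAC, against 0.305% ± 0.0173 in WT sham, and 0.536% ± 0.0651 in JP2CR TAC, against 0.309% ± 0.0319 in JP2CR sham (SD, n = 4 each). The basement membrane class had the largest sum in every group, led by Col4a1 and Col4a2, and was followed by the fibrillar class. The basement membrane sum was 336, 469, 408 and 364 CPM per kb in WT TAC 1 to 4, against 234, 254, 232 and 259 in WT sham. The fibrillar sum was 310.2, 397, 359.6 and 285 CPM per kb in WT TAC, against 166, 190.3, 170.0 and 189 in WT sham. For both classes all WT TAC libraries lay above all WT sham libraries.

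The mean share of the summed collagen level held by fibrillar and short-chain chains was larger in TAC, and those of basement membrane and beaded-filament chains were smaller. The fibrillar class held 37.7% ± 1.83 of it in WT TAC and 34.8% ± 0.462 in WT sham, and 38.6% ± 0.782 in JP2CR TAC and 33.8% ± 3.36 in JP2CR sham (SD, n = 4 each). The short-chain class held 5.24% ± 0.806 in WT TAC and 1.22% ± 0.133 in WT sham, and 4.67% ± 0.778 in JP2CR TAC and 1.25% ± 0.468 in JP2CR sham (SD, n = 4 each). The basement membrane class held 44.0% ± 0.999 in WT TAC and 47.7% ± 0.464 in WT sham, and 43.1% ± 0.617 in JP2CR TAC and 47.8% ± 4.76 in JP2CR sham (SD, n = 4 each). The beaded-filament class held 10.1% ± 0.308 in WT TAC and 13.6% ± 0.193 in WT sham, and 10.9% ± 0.243 in JP2CR TAC and 14.2% ± 1.62 in JP2CR sham (SD, n = 4 each). In JP2CR sham the shares of the fibrillar class ran from 29.6% to 37.8% and overlapped those of JP2CR TAC, and the basement membrane shares in JP2CR TAC, 42.5% to 43.8%, lay within the 40.8% to 51.1% of JP2CR sham. The short-chain and beaded-filament shares of the TAC and sham libraries did not overlap in either genotype. These shares are descriptions and were not tested.

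**Figure D2:**
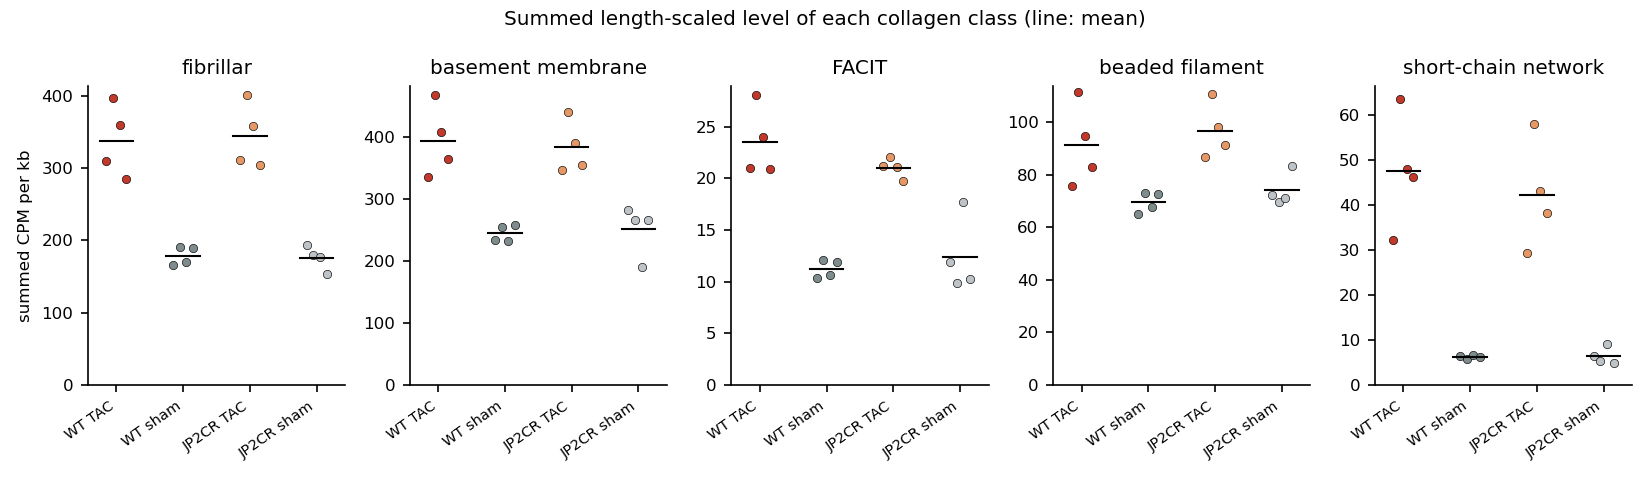
Summed length-scaled level (CPM per kb, vertical axis) of 5 collagen classes in each library of WT TAC, WT sham, JP2CR TAC and JP2CR sham; points are libraries and lines are group means. The short-chain sum was on average 7.62 times as high in WT TAC as in WT sham and 6.54 times as high in JP2CR TAC as in JP2CR sham, against 1.31 times in both genotypes for the beaded-filament class.

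Among fibrillar chains, Col1a1 and Col1a2, the chains of type I collagen, and Col3a1, the single chain of type III, rose in both genotypes. Col1a1 (chr11:94936224-94953042, plus strand in the GENCODE annotation of GRCm38) had 364, 398, 394 and 285 CPM in WT TAC, against 146, 171, 143 and 170.2 CPM in WT sham, and 319, 378, 366 and 299 CPM in JP2CR TAC, against 159, 154, 153 and 128 CPM in JP2CR sham. The TAC libraries lay above the sham libraries in both genotypes without overlap, and the log2 fold change was 1.19 ± 0.11 in WT (SE, adjusted p = 1.26e-07) and 1.20 ± 0.11 in JP2CR (adjusted p = 2.4e-07). Col1a2 had 492, 550.4, 529 and 404 CPM in WT TAC, against 216, 242, 216 and 252 CPM in WT sham, and 409, 544, 488 and 419 CPM in JP2CR TAC, against 245, 217, 283 and 183 CPM in JP2CR sham. It rose by a log2 fold change of 1.09 ± 0.12 in WT (adjusted p = 1.85e-06) and 1.002 ± 0.12 in JP2CR (adjusted p = 6.41e-06). Per kb, Col1a2 was higher than Col1a1 in all 4 groups, at 92.4 ± 12.1 and 60.8 ± 8.84 CPM per kb in WT TAC (SD, n = 4 each).

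Col3a1 had 635, 880.2, 766 and 626 CPM in WT TAC, against 405, 450.4, 423 and 444 CPM in WT sham, and 747, 992, 865 and 722 CPM in JP2CR TAC, against 478, 439, 391 and 382 CPM in JP2CR sham. No TAC library overlapped the sham libraries, and library 2 was the highest of both TAC groups. The log2 fold change of Col3a1 was 0.76 ± 0.11 in WT (adjusted p = 3.29e-05) and 0.98 ± 0.11 in JP2CR (adjusted p = 3.04e-06).

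The type V chains, which join type I in mixed fibrils and set their width, rose for Col5a1 and Col5a2. Col5a1 had 113, 163, 140.3 and 106 CPM in WT TAC, against 80.6, 94.1, 80.2 and 94.1 CPM in WT sham, and 118, 156, 142 and 133 CPM in JP2CR TAC, against 87.4, 81.5, 84.1 and 82.5 CPM in JP2CR sham. Its partner Col5a2 had 145, 227, 185 and 171 CPM in WT TAC, against 57.1, 65.97, 62.5 and 64.1 CPM in WT sham, and 140.0, 196, 153 and 141 CPM in JP2CR TAC, against 68.1, 66.2, 73.6 and 47.3 CPM in JP2CR sham. Both rose without overlap between TAC and sham: Col5a1 by a log2 fold change of 0.58 ± 0.11 in WT (adjusted p = 0.000467) and 0.71 ± 0.11 in JP2CR (adjusted p = 8.87e-05), and Col5a2 by 1.54 ± 0.14 (adjusted p = 1.9e-07) and 1.30 ± 0.14 (adjusted p = 1.82e-06). Col5a3, the remaining type V chain, was not called in either genotype, at 29.3 to 75.7 CPM in WT TAC and 47.1 to 70.4 in WT sham, and 34.9 to 58.1 in JP2CR TAC and 19.4 to 75.9 in JP2CR sham. The lowest of these, 19.4 CPM, was the Xist-positive JP2CR sham 3.

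The remaining fibrillar chains were scarce. Col11a1, a type XI chain best known from cartilage, had 1.24, 0.929, 1.34 and 1.04 CPM in WT TAC, against 0.503, 0.124, 0.244 and 0.0692 CPM in WT sham, and 2.62, 0.484, 1.23 and 0.601 CPM in JP2CR TAC, against 0.499, 0.366, 0.308 and 0 CPM in JP2CR sham. It rose in both genotypes (log2 fold change 2.31 ± 0.63 in WT, adjusted p = 0.00708, and 1.95 ± 0.59 in JP2CR, adjusted p = 0.0138), but on 1 to 6 counts per WT sham library, and without JP2CR TAC 1 the JP2CR value was 1.28 ± 0.55 (adjusted p = 0.081). Col11a2, the partner of Col11a1 in type XI trimers, went the other way.

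Col11a2 had 2.25, 3.52, 3.43 and 3.77 CPM in WT TAC, against 3.35, 7.07, 5.53 and 6.23 CPM in WT sham, and 2.09, 3.55, 2.01 and 4.34 CPM in JP2CR TAC, against 3.99, 4.57, 7.52 and 6.79 CPM in JP2CR sham. The groups overlapped in both genotypes and the chain fell with a log2 fold change of -0.79 ± 0.28 in WT (adjusted p = 0.0295) and -0.92 ± 0.28 in JP2CR (adjusted p = 0.0136). The call was lost in WT without WT sham 2, 3 or 4 or WT TAC 1 or 3 (-0.81 to -0.64, adjusted p 0.0502 to 0.105) and in JP2CR without JP2CR sham 3 (-0.73, adjusted p = 0.0562), the Xist-positive libraries (-0.74, adjusted p = 0.0788), the TAC libraries numbered 3 (-0.77, adjusted p = 0.0603) or all 5 (-0.60, adjusted p = 0.238). Col27a1, a fibrillar chain of cartilage matrix, was called higher in WT only, at 0.47 ± 0.17 (adjusted p = 0.0326), against 0.02 ± 0.17 in JP2CR (adjusted p = 0.948). Its levels were 12.9 to 16.5 CPM in WT TAC and 9.48 to 12.7 in WT sham, and 12.1 to 15.2 in JP2CR TAC and 10.3 to 19.5 in JP2CR sham. The WT call was lost without WT sham 1, 2 or 3 or WT TAC 2 or 4 (0.41 to 0.48, adjusted p 0.0561 to 0.0872) or both TAC libraries numbered 3 (0.48, adjusted p = 0.0576), and the difference between genotypes in the TAC effect was -0.45 ± 0.24 (adjusted p = 0.542).

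**Figure D3:**
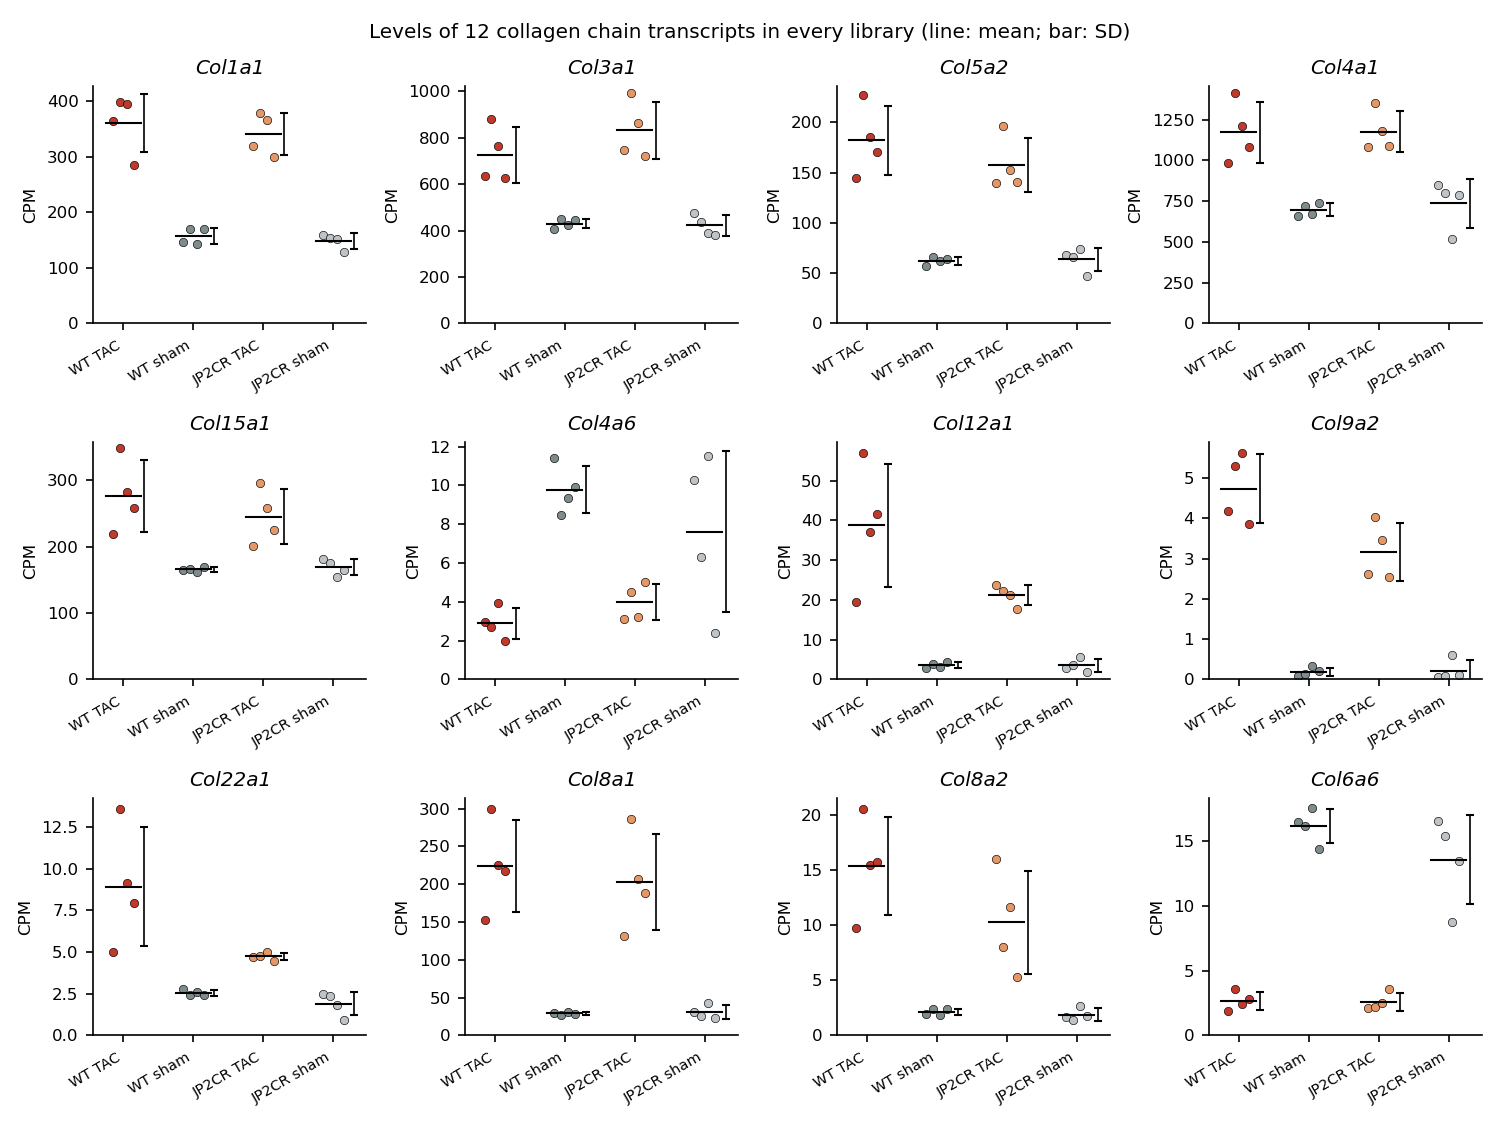
CPM (vertical axes, each starting at 0) of 12 collagen chains in every library of WT TAC, WT sham, JP2CR TAC and JP2CR sham; points are libraries, lines group means and bars the SD. Col4a6 and Col6a6 show lower TAC points and the other panels higher ones, and the JP2CR sham points of Col4a6 run from 2.40 to 11.5 CPM.

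FACIT chains included the largest rises of all. Col12a1 (chr9:79598991-79718831, minus strand), a long FACIT chain that bridges type I fibrils, had 19.4, 56.9, 37.1 and 41.5 CPM in WT TAC, against 2.85, 3.91, 3.17 and 4.43 CPM in WT sham, and 23.8, 22.2, 21.2 and 17.8 CPM in JP2CR TAC, against 2.92, 3.66, 5.61 and 1.88 CPM in JP2CR sham. All TAC libraries lay well above all sham libraries, with a log2 fold change of 3.41 ± 0.29 in WT (10.7-fold, adjusted p = 9.09e-08) and 2.53 ± 0.30 in JP2CR (5.77-fold, adjusted p = 4.88e-06). The lowest WT TAC library, WT TAC 1, was also the lowest of its group for Col8a1, Col8a2 and Col22a1.

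Col9a2, a type IX chain that in cartilage coats type II fibrils, had 4.18, 5.31, 5.61 and 3.85 CPM in WT TAC, against 0.0839, 0.124, 0.326 and 0.208 CPM in WT sham, and 2.62, 4.03, 3.47 and 2.54 CPM in JP2CR TAC, against 0.0713, 0.0915, 0.616 and 0.105 CPM in JP2CR sham. TAC and sham libraries did not overlap, and the log2 fold change was 4.63 ± 0.41 in WT (adjusted p = 1.22e-07) and 3.60 ± 0.41 in JP2CR (adjusted p = 2.89e-06). These folds rest on 1 to 4 counts per WT sham library and 1 to 10 per JP2CR sham library, so their size is imprecise. Its trimer partner Col9a3 was not called, at 0.562 to 0.837 CPM in WT TAC, against 0.335 to 0.762 in WT sham, and Col9a1, the other type IX chain, was too low to test. Col9a3 shares exon sequence with Tcfl5 on the opposite strand, and whether counting used strand is not given in the sources used here.

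Markers of cartilage were summed beside these chains. The 7 chondrocyte markers summed to 68.3 to 82.3 CPM in WT TAC, against 19.96 to 25.8 in WT sham, and to 30.4 to 81.8 in JP2CR TAC, against 5.02 to 27.6 in JP2CR sham. Most of each TAC sum came from Comp, which was also on the list of activated fibroblast markers. Comp had 59.7, 72.4, 69.3 and 65.0 CPM in WT TAC, against 12.5 to 17.9 in WT sham. In JP2CR TAC it had 71.6, 28.3, 47.5 and 20.9 CPM. The cartilage matrix genes Matn1 and Matn3 were at 0 in both sham groups, and Matn1 was at 0 in JP2CR TAC too. Of 4 tested chondrocyte markers, 3 rose and 1 fell in WT, and 2 rose in JP2CR. Among all tested genes, 21.1% were higher and 20.8% lower in WT, and 20.7% each way in JP2CR. The part of the chondrocyte markers in the rise of Col9a2 and Col11a1 was not tested.

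Col22a1, a FACIT chain known from tissue junctions such as those of muscle and tendon, had 5.03, 13.6, 9.13 and 7.94 CPM in WT TAC, against 2.77, 2.42, 2.60 and 2.42 CPM in WT sham, and 4.71, 4.76, 5.02 and 4.47 CPM in JP2CR TAC, against 2.49, 2.38, 1.85 and 0.941 CPM in JP2CR sham. It rose by a log2 fold change of 1.81 ± 0.25 in WT (adjusted p = 1.85e-05) and 1.27 ± 0.28 in JP2CR (adjusted p = 0.00142). Col16a1, a minor FACIT chain made by fibroblasts and smooth muscle, ran from 35.1 to 50.03 CPM in WT TAC, against 15.1 to 22.4 in WT sham, and from 37.6 to 43.4 in JP2CR TAC, against 15.2 to 25.02 in JP2CR sham. It rose by 1.18 ± 0.14 in WT and 1.06 ± 0.14 in JP2CR (adjusted p = 4.19e-06 and 1.65e-05).

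Col14a1, a FACIT chain of mature, aligned collagen fibrils, had 56.8, 58.9, 58.3 and 48.2 CPM in WT TAC, against 37.9, 36.8, 38.8 and 38.6 CPM in WT sham, and 56.4, 59.4, 55.6 and 54.6 CPM in JP2CR TAC, against 39.9, 29.3, 70.6 and 39.3 CPM in JP2CR sham. The WT groups did not overlap (0.55 ± 0.17, adjusted p = 0.0153), whereas JP2CR sham 3, which is Xist-positive, stood above every JP2CR TAC library. The JP2CR value was 0.32 ± 0.17 with it (adjusted p = 0.14) and 0.65 ± 0.09 without it (adjusted p = 2.51e-05). Col20a1, a little-studied FACIT chain, was not called in either genotype (-0.45 ± 0.21 in WT and -0.44 ± 0.21 in JP2CR), but was called lower in JP2CR without JP2CR TAC 4 (-0.69 ± 0.20, adjusted p = 0.0118), which is Xist-positive, and without all 3 Xist-positive libraries (-0.73 ± 0.25, adjusted p = 0.0284).

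Among basement membrane chains, all type IV chains but Col4a6 rose in both genotypes. Type IV chains are encoded in mouse by 3 head-to-head gene pairs, and their start sites, as annotated by GENCODE on GRCm38, lay 21 bases apart for Col4a1 and Col4a2 on chromosome 8, with overlapping transcripts, 72 bases apart for Col4a3 and Col4a4 on chromosome 1, and 1309 bases apart for Col4a5 and Col4a6 on chromosome X. Promoter windows of 300 bases, from 250 before to 50 after the start site, were taken from RefSeq for GRCm38.p6, where 35 of the 44 collagen genes had 38 windows. The windows of Col4a1 and Col4a2 share the stretch chr8:11312777-11312854, which is shown as read along each gene because both chains rose. The separate windows of Col4a6, on the minus strand at chrX:141474027-141474326, and Col4a5, on the plus strand at chrX:141475169-141475468, are shown because these neighbours moved in opposite directions. Those of Col8a1, minus strand at chr16:57754688-57754987, and Col6a6, minus strand at chr9:105828036-105828335, belong to the short-chain chain that rose and the type VI chain that fell. Capitals mark matches, on either strand, to the GC box (GGGCGG), to the CCAAT box and to the core of the TATA box (TATAA); a match on the other strand appears as its reverse complement.
Col4a2 strand of the shared stretch: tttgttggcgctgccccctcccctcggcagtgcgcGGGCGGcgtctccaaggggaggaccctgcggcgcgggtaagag
Col4a1 strand of the shared stretch: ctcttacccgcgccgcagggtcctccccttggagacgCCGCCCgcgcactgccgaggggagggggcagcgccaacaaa
Col4a6 promoter window: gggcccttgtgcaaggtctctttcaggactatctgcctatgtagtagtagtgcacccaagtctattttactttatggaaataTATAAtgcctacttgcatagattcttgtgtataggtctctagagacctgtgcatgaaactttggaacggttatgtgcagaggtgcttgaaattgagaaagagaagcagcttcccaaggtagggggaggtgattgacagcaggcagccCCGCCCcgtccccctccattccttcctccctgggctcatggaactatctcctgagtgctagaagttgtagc
Col4a5 promoter window: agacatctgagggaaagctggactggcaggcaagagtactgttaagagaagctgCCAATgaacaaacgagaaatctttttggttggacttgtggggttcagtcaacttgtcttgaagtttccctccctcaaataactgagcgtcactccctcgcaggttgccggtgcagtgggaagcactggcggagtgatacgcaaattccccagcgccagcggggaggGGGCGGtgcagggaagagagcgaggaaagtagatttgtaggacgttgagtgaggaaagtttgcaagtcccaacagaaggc
Col8a1 promoter window: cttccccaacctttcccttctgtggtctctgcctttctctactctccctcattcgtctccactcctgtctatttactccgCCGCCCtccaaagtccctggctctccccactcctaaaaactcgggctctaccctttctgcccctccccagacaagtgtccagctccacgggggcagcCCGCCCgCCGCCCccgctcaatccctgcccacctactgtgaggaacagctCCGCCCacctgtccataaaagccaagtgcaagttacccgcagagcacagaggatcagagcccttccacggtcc
Col6a6 promoter window: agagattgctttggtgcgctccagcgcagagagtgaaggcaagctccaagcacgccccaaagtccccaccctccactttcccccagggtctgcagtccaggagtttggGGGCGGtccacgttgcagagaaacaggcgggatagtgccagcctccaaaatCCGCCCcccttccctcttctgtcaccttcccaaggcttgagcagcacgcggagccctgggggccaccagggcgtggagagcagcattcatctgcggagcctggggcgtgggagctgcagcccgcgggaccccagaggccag

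Collagen windows held a median of 11.5 CG dinucleotides, against 7 over all windows, and the motif shares were not adjusted for this. A GC box stood in 23 of the 38 collagen windows (60.5%), against 35.7% of all 32851 RefSeq windows of the same length. CCAAT stood in 34.2% of collagen windows, against 37.4% of all windows, and TATAA in 18.4%, against 24.9%. The AP-1 element, TGANTCA, stood in 2.63% of collagen windows, against 7.81% of all windows. The stretch shared by Col4a1 and Col4a2 held a single GC box. Those of Col4a6 and Col4a5 held 1 GC box each, with a TATAA in the Col4a6 window and a CCAAT in the Col4a5 window. The Col8a1 window, whose gene rose, held 4 GC boxes, and the Col6a6 window, whose gene fell, held 2, so a GC box stood in windows of chains that moved either way. These are matches of letters and not shown to be bound sites.

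Col4a1, the chain of the main heart basement membrane trimer that is used with Col4a2, had 983, 1411, 1213 and 1081 CPM in WT TAC, against 658, 721, 670.3 and 742 CPM in WT sham, and 1082, 1351, 1179.6 and 1087 CPM in JP2CR TAC, against 849.8, 798, 515 and 789 CPM in JP2CR sham. Col4a2 had 755, 1019, 911 and 804 CPM in WT TAC, against 514, 594, 504 and 593 CPM in WT sham, and 766, 955, 874 and 788 CPM in JP2CR TAC, against 626, 586, 393 and 627 CPM in JP2CR sham. For both chains, library by library, WT TAC 2 and JP2CR TAC 2 were the highest and JP2CR sham 3 the lowest, and TAC and sham did not overlap. The log2 fold change was 0.75 ± 0.13 in WT and 0.67 ± 0.13 in JP2CR for Col4a1 (adjusted p = 0.000173 and 0.000514), and 0.66 ± 0.13 and 0.60 ± 0.13 for Col4a2 (adjusted p = 0.000406 and 0.00102). The annotated first exons of the pair overlap on opposite strands, so a few reads could have been counted for either gene.

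Col4a3 and Col4a4, which assemble with Col4a5 in the network of kidney glomeruli, were far scarcer in these ventricles. Col4a3 had 14.5, 28.6, 23.1 and 19.7 CPM in WT TAC, against 8.72, 7.76, 6.51 and 7.83 CPM in WT sham, and 15.7, 23.5, 18.6 and 17.8 CPM in JP2CR TAC, against 8.62, 8.14, 7.83 and 5.64 CPM in JP2CR sham. Col4a4 had 20.8, 34.5, 23.9 and 23.5 CPM in WT TAC, against 12.7, 14.1, 13.5 and 14.5 CPM in WT sham, and 18.99, 25.6, 20.5 and 22.4 CPM in JP2CR TAC, against 13.8, 13.3, 9.86 and 9.72 CPM in JP2CR sham. Neither chain overlapped between TAC and sham in either genotype. Col4a3 rose by a log2 fold change of 1.48 ± 0.18 in WT and 1.31 ± 0.18 in JP2CR (adjusted p = 4.93e-06 and 2.87e-05), and Col4a4 by 0.91 ± 0.15 and 0.90 ± 0.15 (adjusted p = 8.75e-05 and 0.000147).

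The X-linked pair split. Col4a5 had 121, 114, 119.6 and 111 CPM in WT TAC, against 83.4, 82.7, 84.1 and 83.2 CPM in WT sham, and 105, 116, 109 and 97.1 CPM in JP2CR TAC, against 84.1, 78.9, 81.6 and 72.5 CPM in JP2CR sham. Its neighbour Col4a6, the chain that joins it in smooth muscle basement membranes, had 2.94, 2.72, 3.94 and 2.01 CPM in WT TAC, against 11.4, 8.50, 9.36 and 9.90 CPM in WT sham, and 3.14, 4.52, 3.24 and 5.01 CPM in JP2CR TAC, against 10.3, 6.31, 11.5 and 2.40 CPM in JP2CR sham. Col4a5 rose in both genotypes without overlap, by 0.48 ± 0.06 in WT and 0.42 ± 0.06 in JP2CR (adjusted p = 3.39e-06 and 1.72e-05). Col4a6 fell in WT, with a log2 fold change of -1.75 ± 0.32 (adjusted p = 0.000309) and no overlap. It also fell in JP2CR, with -0.98 ± 0.31 (adjusted p = 0.019), but there JP2CR sham 4 lay below all 4 JP2CR TAC libraries. The JP2CR call was lost without JP2CR sham 1 or 3 or JP2CR TAC 1 or 3 (-0.89 to -0.71, adjusted p 0.0519 to 0.0843), by limma voom (-0.88, adjusted p = 0.059) and in a fit of the JP2CR groups alone (-0.97, adjusted p = 0.0747).

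Atrial markers were read beside Col4a6. Without Nppa, which ventricles express under load, 7 atrial markers summed to 99.1 to 325 CPM in WT TAC, against 1462 to 2402 in WT sham, and to 425 to 679 in JP2CR TAC, against 158 to 2278 in JP2CR sham. JP2CR sham 4 was the lowest JP2CR sham library for both Col4a6 and the atrial sum. The atrial light chain Myl7 had 529, 299, 802 and 0.941 CPM in JP2CR sham 1 to 4. Within WT sham the orders differed. WT sham 1 had the most Col4a6, 11.4 CPM, and the lowest atrial sum, 1462. WT sham 2 had the least Col4a6, 8.50 CPM, and the highest atrial sum, 2402. The 8 markers of smooth muscle and pericytes summed to 791 to 1041 CPM in WT TAC, against 1065 to 1288 in WT sham, and to 851 to 1047 in JP2CR TAC, against 1166 to 1249 in JP2CR sham. Of 8 atrial markers 7 fell and 1 rose in WT, and 3 fell and 0 rose in JP2CR. Of 8 smooth muscle and pericyte markers 5 fell in WT and 3 in JP2CR. Of all tested genes, 21.1% were higher and 20.8% lower in WT, and 20.7% each way in JP2CR. The part of either list in the fall of Col4a6 was not tested.

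**Figure D4:**
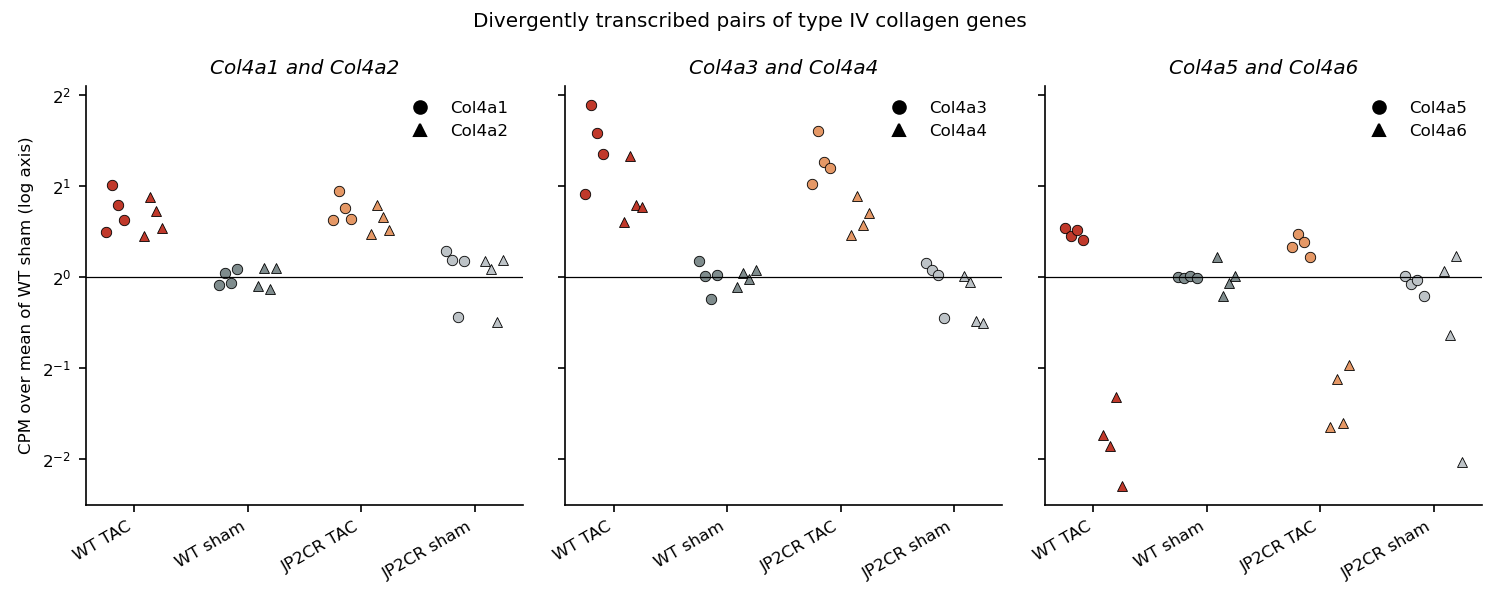
Level of each type IV chain relative to its mean in WT sham (log axis) in every library of WT TAC, WT sham, JP2CR TAC and JP2CR sham, with circles for the first and triangles for the second gene of each head-to-head pair. Both symbols rise for Col4a1 with Col4a2 and for Col4a3 with Col4a4, though Col4a3 rises more than Col4a4. Col4a5 rises and Col4a6 falls, with 2.01 to 3.94 CPM of Col4a6 in WT TAC and 8.50 to 11.4 CPM in WT sham.

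Col15a1 and Col18a1 are the multiplexin chains, which link basement membranes to the matrix around them and carry anti-angiogenic fragments. Col15a1 had 218, 348, 282 and 259 CPM in WT TAC, against 165, 166, 162 and 169.7 CPM in WT sham, and 201, 296, 258 and 226 CPM in JP2CR TAC, against 182, 175, 154 and 165 CPM in JP2CR sham. It rose without overlap, by a log2 fold change of 0.74 ± 0.12 in WT and 0.54 ± 0.12 in JP2CR (adjusted p = 8.02e-05 and 0.00157). Col18a1 had 29.2, 31.5, 26.96 and 22.8 CPM in WT TAC, against 32.9, 28.5, 25.96 and 30.3 CPM in WT sham, and 29.2, 39.5, 34.3 and 31.9 CPM in JP2CR TAC, against 29.9, 27.3, 33.95 and 22.4 CPM in JP2CR sham. The groups overlapped and Col18a1 was not called, at -0.09 ± 0.12 in WT and 0.24 ± 0.12 in JP2CR (adjusted p = 0.607 and 0.132), though without JP2CR sham 3 the JP2CR value was 0.34 ± 0.12 (adjusted p = 0.0354).

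Type VIII chains, the short-chain network, rose steeply in both genotypes. Col8a1 (chr16:57624258-57754737, minus strand) had 153, 300.1, 226 and 217 CPM in WT TAC, against 30.02, 26.7, 31.7 and 28.8 CPM in WT sham, and 131, 286, 207 and 188 CPM in JP2CR TAC, against 30.4, 25.8, 43.4 and 23.1 CPM in JP2CR sham. Its partner Col8a2 had 9.76, 20.6, 15.5 and 15.7 CPM in WT TAC, against 1.93, 2.42, 1.87 and 2.35 CPM in WT sham, and 16.003, 8.06, 11.7 and 5.28 CPM in JP2CR TAC, against 1.71, 1.37, 2.71 and 1.78 CPM in JP2CR sham. TAC and sham stood apart for both chains. Col8a1 rose 7.67-fold in WT (log2 2.94 ± 0.24, adjusted p = 4.62e-08) and 6.53-fold in JP2CR (log2 2.71 ± 0.23, adjusted p = 1.87e-07), and Col8a2 7.11-fold (log2 2.83 ± 0.31, adjusted p = 1.45e-06) and 5.24-fold (log2 2.39 ± 0.33, adjusted p = 2.03e-05). In JP2CR TAC the chains ran in different orders, since library 1 was the lowest for Col8a1 and the highest for Col8a2. Col10a1, a short-chain collagen of growth-plate cartilage, was too low to test.

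Type VI chains split into a modest rise and a steep fall. Col6a1, a core chain of the beaded filament, had 162, 230.1, 199 and 174 CPM in WT TAC, against 132, 145, 139 and 149.9 CPM in WT sham, and 184, 228, 206 and 181 CPM in JP2CR TAC, against 148, 138, 147 and 169.5 CPM in JP2CR sham. It rose by 0.44 ± 0.10 in WT and 0.41 ± 0.10 in JP2CR (adjusted p = 0.00158 and 0.00289), and its core partner Col6a2 rose by 0.50 ± 0.12 and 0.48 ± 0.12 (adjusted p = 0.00223 and 0.00337). TAC and sham did not overlap for either. Col6a3, the long chain of the usual type VI trimer, was not called, at 0.08 ± 0.09 in WT and 0.19 ± 0.09 in JP2CR (adjusted p = 0.527 and 0.114). Without JP2CR sham 4, the JP2CR value of Col6a3 was 0.28 ± 0.09 (adjusted p = 0.0249), and without the Xist-positive libraries it was 0.31 ± 0.11 (adjusted p = 0.0391).

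Col6a6 (chr9:105687809-105828160, minus strand), a chain that can replace Col6a3 in type VI trimers, had 1.86, 3.58, 2.43 and 2.81 CPM in WT TAC, against 16.5, 16.2, 17.6 and 14.4 CPM in WT sham, and 2.09, 2.18, 2.55 and 3.61 CPM in JP2CR TAC, against 16.6, 15.5, 8.81 and 13.5 CPM in JP2CR sham. Every TAC library lay below every sham library in both genotypes. The level was 5.98 times as high in WT sham as in WT TAC (log2 -2.58 ± 0.21, adjusted p = 6.04e-08) and 5.13 times as high in JP2CR sham as in JP2CR TAC (log2 -2.36 ± 0.21, adjusted p = 3.2e-07). JP2CR sham 4, which was low in Col4a6 and in atrial markers, had 13.5 CPM of Col6a6, and the highest JP2CR TAC library had 3.61. Adipocyte markers also moved in WT, where 8 summed to 0.232 to 5.70 CPM in WT TAC, with Retn and Ucp1 at 0, against 20.3 to 221 in WT sham. In JP2CR the adipocyte sums, 2.10 to 92.2 CPM in JP2CR TAC and 4.76 to 239 in JP2CR sham, overlapped. All 8 adipocyte markers fell in WT, and in JP2CR 0 of 8 were called. Of all tested genes, 20.8% were lower in WT and 20.7% in JP2CR. The part of atrial or adipocyte markers in the fall of Col6a6 was not tested in either genotype.

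Col6a5, the chain next to Col6a6 on chromosome 9, behaved otherwise. It had 0.852, 0.133, 0.167 and 0 CPM in WT TAC, against 0.419, 1.12, 0.488 and 0.485 CPM in WT sham, and 6.21, 0.161, 2.93 and 0.200 CPM in JP2CR TAC, against 0.713, 0.915, 0.123 and 0.105 CPM in JP2CR sham. The groups overlapped in both genotypes, and the JP2CR TAC group split into libraries 1 and 3, which were high, and libraries 2 and 4, which were low. Col6a5 was called higher in JP2CR (log2 fold change 2.35 ± 0.91, adjusted p = 0.0474) and not in WT (-1.15 ± 1.18, adjusted p = 0.465). The JP2CR call was not made by DESeq2 (2.36, adjusted p = 0.0872) or limma voom (1.41, adjusted p = 0.329), and it was lost when any of 11 of the 16 libraries was left out (adjusted p 0.0532 to 0.311). Without JP2CR TAC 1 the value was 1.22 ± 0.91, and without the Xist-positive libraries it was 1.95 ± 0.87 (adjusted p = 0.094).

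The remaining tested chains were low. The transmembrane chains Col13a1 and Col23a1 were not called by edgeR, at -0.00 ± 0.29 and -0.58 ± 0.23 in WT and -0.10 ± 0.30 and -0.29 ± 0.24 in JP2CR. Col23a1 had 6.27, 2.99, 5.78 and 3.45 CPM in WT TAC, against 7.80, 7.01, 6.84 and 5.89 CPM in WT sham, with an adjusted p of 0.0551. It was called lower in WT by DESeq2 (-0.58 ± 0.24, adjusted p = 0.0434) and limma voom (-0.65 ± 0.23, adjusted p = 0.0287), in an edgeR fit of the WT groups alone (-0.58, adjusted p = 0.0347), without any of 4 single libraries (-0.77 to -0.58, adjusted p 0.019 to 0.0399) and in the authors' deposited table (adjusted p = 0.0222). Col7a1, the anchoring fibril chain of skin, was not called in either genotype. Col26a1, a short collagen known from testis and ovary, was called higher in WT (1.81 ± 0.48, adjusted p = 0.00595) and not in JP2CR (1.10 ± 0.49, adjusted p = 0.0838), on few counts. In JP2CR it was called higher without JP2CR sham 1 (1.52, adjusted p = 0.0427) or JP2CR TAC 1 (1.37, adjusted p = 0.0272), and the interaction was not called (-0.71 ± 0.72, adjusted p = 0.797). Col28a1, a collagen of peripheral nerve, was called higher in JP2CR (0.85 ± 0.25, adjusted p = 0.0125) and not in WT (-0.05 ± 0.26, adjusted p = 0.894), with overlapping libraries in both. The 8 Schwann cell and nerve markers summed to 15.5 to 18.1 CPM in WT TAC, against 39.2 to 51.2 in WT sham. In JP2CR they summed to 19.6 to 25.6 CPM in JP2CR TAC, against 32.3 to 45.5 in JP2CR sham. The part of these markers in the level of Col28a1 was not tested.

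Ratios between chains that share a trimer or fibril were also compared. For 8 pairs of partner chains the log2 ratio of counts was compared between TAC and sham with an exact two-sided permutation test over libraries, in each genotype, which allows no p below 0.0286. None of the 16 tests passed a Benjamini-Hochberg adjusted p of 0.05, and the smallest adjusted exact p was 0.0762. With that floor, no pair could pass after adjustment unless most of the 16 tests reached it. The lack of a pass is therefore no evidence that the ratios were unchanged. The log2 ratio of Col5a2 to Col5a1 was 0.48 ± 0.15 in WT TAC and -0.48 ± 0.08 in WT sham, and 0.19 ± 0.12 in JP2CR TAC and -0.41 ± 0.27 in JP2CR sham (SD, n = 4 each). It thus stood 1.95-fold higher in WT TAC and 1.52-fold higher in JP2CR TAC, with no overlap in either genotype (adjusted exact p = 0.0762 for both). The log2 ratio of Col6a3 to Col6a1 stood lower in TAC without overlap in both genotypes, with a difference of -0.36 in WT and -0.21 in JP2CR (adjusted exact p = 0.0762 for both). The ratio of Col3a1 to Col1a1 differed by -0.44 in WT without overlap and by -0.22 in JP2CR with overlap. The ratio of Col4a4 to Col4a3 differed by -0.56 in WT without overlap and by -0.41 in JP2CR with overlap. The ratio of Col4a2 to Col4a1 differed by -0.08 in WT and -0.07 in JP2CR, with overlap in both.

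JP2CR and WT were then compared for the same chains. No collagen chain was called in JP2CR sham over WT sham, where 0% of all tested genes were higher and 0.0961% lower. For 0 chains did the JP2CR sham and WT sham libraries stand apart, where 2% of all tested genes were higher and 2.78% lower without overlap. None had an unadjusted p under 0.05 by edgeR, DESeq2 or limma voom, where 7.97%, 6.76% and 8.14% of all tested genes did. In the interaction, the TAC effect in JP2CR minus that in WT, 0 chains were called by any of the 3 tools, where edgeR called 0.0887% of all tested genes higher and 0.0296% lower. At an unadjusted p under 0.05 there were 2 chains by edgeR, 2 by DESeq2 and 1 by voom, of 36, where 10.3%, 9.16% and 10.1% of all tested genes were under it. The edgeR pair was Col28a1 (0.90 ± 0.36, adjusted p = 0.37) and Col6a5 (3.50 ± 1.498, adjusted p = 0.413). For abundant chains the 95% interval of the interaction ran from -0.31 to 0.31 for Col1a1, -0.11 to 0.55 for Col3a1 and -0.46 to 0.31 for Col4a1 on the log2 scale. For Col12a1 it ran from -1.81 to 0.04.

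In JP2CR TAC over WT TAC, edgeR called 0 chains, where it called 0.362% of all tested genes higher and 0.288% lower. At an unadjusted p under 0.05 there were 9 chains, 4 higher and 5 lower, where 12.9% of all tested genes were under it. The libraries stood apart for 1 chain higher in JP2CR TAC, Col28a1, and 1 lower, Col22a1, where 3.96% and 4.16% of all tested genes did so. Voom called 0, with 8 chains at an unadjusted p under 0.05, and DESeq2 called 1, Col22a1 (adjusted p = 0.0231). Col22a1 had 4.71, 4.76, 5.02 and 4.47 CPM in JP2CR TAC and 5.03, 13.6, 9.13 and 7.94 CPM in WT TAC, so that the highest JP2CR TAC library lay just under the lowest WT TAC library. By edgeR its log2 fold change was -0.92 ± 0.23 (adjusted p = 0.0825). Col12a1 had 23.8, 22.2, 21.2 and 17.8 CPM in JP2CR TAC and 19.4, 56.9, 37.1 and 41.5 CPM in WT TAC, with overlap at WT TAC 1, and a log2 fold change of -0.87 ± 0.24 (adjusted p = 0.103). Without WT TAC 1 both were called lower, at -1.12 ± 0.20 for Col22a1 (adjusted p = 0.0182) and -1.09 ± 0.18 for Col12a1 (adjusted p = 0.0154). Col6a5, at 3.004 ± 0.98 (adjusted p = 0.18), was called higher only in the fit without the 3 Xist-positive libraries (3.41 ± 0.82, adjusted p = 0.0353).

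Enzymes that build collagen rose in part. Of 26 genes of collagen biosynthesis and processing, 12 rose and 3 fell in WT (median log2 fold change 0.14), and 12 rose and 4 fell in JP2CR (median 0.16), against the shares of 21.1% higher and 20.8% lower of all tested genes in WT and 20.7% each way in JP2CR. Adamts2, which cleaves the amino-terminal propeptide of fibrillar procollagens, rose by 1.04 ± 0.10 in WT and 1.03 ± 0.10 in JP2CR (adjusted p = 4.18e-07 and 7.71e-07). Pcolce, which enhances carboxy-propeptide cleavage, rose by 0.76 ± 0.09 and 0.67 ± 0.09 (adjusted p = 4.63e-06 and 2.33e-05). P3h2, a prolyl 3-hydroxylase that acts on type IV collagen, rose by 1.502 ± 0.20 and 0.94 ± 0.20 (adjusted p = 1.32e-05 and 0.00106). P4ha3, a prolyl 4-hydroxylase subunit, rose by 2.76 ± 0.51 and 3.88 ± 0.62, on sham levels of 0.0692 to 0.186 CPM in WT and 0 to 0.143 CPM in JP2CR that make its size imprecise. P3h4, a partner in lysine hydroxylation of collagen, fell, with log2 fold changes of -1.13 ± 0.10 in WT and -0.98 ± 0.10 in JP2CR (adjusted p = 9.24e-08 and 6.8e-07).

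Of 8 tested collagen receptors, 5 rose in WT and 6 in JP2CR and none fell in either by edgeR, with medians of 0.46 and 0.42 and against the same shares of all tested genes. The integrin chain Itga1, which with Itgb1 binds type IV and type I collagen, rose by 0.80 ± 0.07 in WT and 0.59 ± 0.07 in JP2CR (adjusted p = 1.25e-07 and 5.98e-06). Itgb1 rose by 0.28 ± 0.06 and 0.31 ± 0.06, and Itga11, the fibroblast receptor of fibrillar collagen, by 0.75 ± 0.19 and 0.52 ± 0.19. Mrc2, which takes up collagen for degradation, rose by 0.98 ± 0.15 and 0.62 ± 0.15. Ddr1, a receptor tyrosine kinase for collagen, was called in JP2CR (0.33 ± 0.12, adjusted p = 0.0277) and not in WT (0.17 ± 0.11, adjusted p = 0.266), a difference that was not called itself.

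Markers of fibroblasts, endothelium and macrophages were read beside these rises. The 12 general fibroblast markers summed to 2364 to 3362 CPM in WT TAC, against 3111 to 3589.5 in WT sham, and to 2914 to 3187 in JP2CR TAC, against 2982 to 4046 in JP2CR sham, and the groups overlapped in both genotypes. Of the 12, 4 rose and 3 fell in WT and 5 rose and 3 fell in JP2CR, where 21.1% of all tested genes rose and 20.8% fell in WT and 20.7% did each in JP2CR. The 8 markers of activated fibroblasts summed to 848 to 1803 CPM in WT TAC, against 296 to 409.6 in WT sham, and to 735 to 986 in JP2CR TAC, against 327 to 455 in JP2CR sham, and 6 of 8 rose and 1 fell in each. Among them Postn, the matrix protein periostin, had 375, 796, 574 and 554 CPM in WT TAC, against 71.3, 60.4, 67.1 and 62.05 in WT sham. The 8 endothelial markers summed to 1074 to 1335 CPM in WT TAC, against 1202 to 1249 in WT sham, and to 1164 to 1278 in JP2CR TAC, against 1175 to 1359 in JP2CR sham. The 7 macrophage markers summed to 379.9 to 423 CPM in WT TAC, against 286 to 316 in WT sham, and to 419 to 499.5 in JP2CR TAC, against 290.4 to 357 in JP2CR sham, without overlap in either genotype, and 6 of 7 rose in each. The part of the fibroblast and macrophage markers in the rise of the collagen chains and receptors was not tested.

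The authors' deposited table, which carries their own adjusted p-values, called 22 collagen chains higher and 4 lower for TAC in WT and 20 higher and 3 lower in JP2CR. Of the 36 tested chains, those called here in the same direction by the authors' deposited table numbered 25 in WT and 23 in JP2CR. The share of all genes called by the authors is not given here, so these counts have no background.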

How the data were processed

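Per the labels' protocols, libraries were stranded and made from polyadenylated RNA. The submitters' processing notes list mm10 and the tools FastQC 1.0.0, STAR 2.5.0b, Picard 1.128, DESeq2 1.6.3, Cufflinks 2.2.1 and bedtools 2.17.0. Which counter and annotation were used, and whether strand was, is not given in the sources used here. The authors deposited unnormalized read counts per gene symbol, with their own log2 fold changes and adjusted p-values from an unstated method. Some fields of their sham comparison hold text, and these other values deposited by the authors were not used. Unmapped count columns numbered 0.

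Counts were tested in edgeR 4.0.16 (R 4.3.3) with filterByExpr by group, TMM scaling and a mean per group over all 16 libraries, by quasi-likelihood F tests with Benjamini-Hochberg adjustment. The standard error was taken from the log2 fold change and its F statistic, and 95% intervals use the t distribution with the test's degrees of freedom. DESeq2 1.42.0, limma 3.58.1 voom, other scalings and filters, each library left out and a replicate block were alternatives. The main edgeR fit was tested on simulated counts for the TAC comparisons and the interaction. Levels per kb use GENCODE M21 lengths. Same-numbered libraries correlated by -0.0483 to 0.106 in their deviations from group means across genes. The labels give no pairing by number, and these correlations cannot exclude a shared day or litter. Members and lists were chosen with earlier results of these data known.

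Values in every library were printed for a fixed list of major chains, the 4 largest called rises and falls in each TAC comparison, and, with a reason given, a few others. Of the biosynthesis and receptor lists, up to 4 genes with the smallest p in each TAC comparison were named. Other chains given library by library were chosen after their values were seen, as were Postn and Comp. Ratios add 0.5 to each count. Figures were drawn with matplotlib 3.10.9.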

Additional observations from a re-analysis of the deposited data

Results flagged for a closer look

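In 6 of 144 groups of 4 libraries, for the 36 tested chains, a single library stood far from the other 3 by Dixon's criterion, where chance gives about 1 in 20, or 7.2. JP2CR sham 3, an Xist-positive library, had 19.5 CPM of Col27a1, against 10.3 to 11.4 in the other JP2CR sham libraries, and 0.616 CPM of Col9a2, against 0.0713 to 0.105. JP2CR TAC 4, which is also Xist-positive, had 37.6 CPM of Col16a1, against 42.5 to 43.4 in the other JP2CR TAC libraries, and 4.34 CPM of Col20a1, against 2.47 to 2.58. WT sham 2 had 0.310 CPM of Col26a1, against 0.407 to 0.419 in the other WT sham libraries, and 1.12 CPM of Col6a5, against 0.419 to 0.488.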

How the results depend on the processing

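With each library left out in turn, the collagen chains called higher ranged from 22 to 23 in WT TAC over WT sham and from 21 to 23 in JP2CR TAC over JP2CR sham, and those called lower from 2 to 4 and from 1 to 4. The lowest count of falls, 1 in JP2CR, came without JP2CR sham 3, where Col4a6 and Col11a2 were not called. The same count of 1 was reached without the TAC libraries numbered 3 and at an adjusted p under 0.01. For JP2CR TAC over WT TAC, 0 to 2 chains were lower with a library left out: 2 without WT TAC 1 (Col12a1 and Col22a1), and 1 without JP2CR sham 3 (Col12a1) or JP2CR sham 4 (Col22a1), while 0 were higher. DESeq2 called 1 lower (Col22a1), and 1 was higher without the Xist-positive libraries (Col6a5). The replicate block gave 23 higher and 4 lower chains in WT and 22 and 3 in JP2CR. It is no design feature, since the labels do not pair the libraries by number. The interaction and the sham genotype comparison stayed at 0 in every alternative run. The partner ratios were at 0 with a pseudocount of 2. With a library left out or with the replicate block they could not pass, since the smallest exact p was then 0.0571 or 0.125. Of 965 refitted values of single chains in WT, 944 kept their call, 11 lost one, 10 gained one and 0 changed direction, and in JP2CR 923 kept it, 31 lost one, 11 gained one and 0 changed direction. Depth limits the chains with few sham counts, Col9a2, Col11a1, Col26a1 and Col6a5, and counting intervals would cover counting error alone.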

Other observations

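Several chains too low to test were detected in particular libraries. Col2a1, the main fibrillar chain of cartilage, had 22, 1, 15 and 2 counts in WT TAC 1 to 4, against 0, 1, 1 and 3 in WT sham, and 6, 0, 3 and 5 in JP2CR TAC, against 0, 0, 2 and 0 in JP2CR sham. Acan, the cartilage proteoglycan aggrecan, was highest in the same WT TAC libraries, 1 and 3, with 3.64, 0.664, 2.85 and 0.802 CPM in WT TAC 1 to 4, against 0.755, 0.310, 0.570 and 0.554 in WT sham. In JP2CR TAC, Acan did not follow Col2a1: it had 0.972, 1.21, 0.386 and 0.935 CPM and was highest in library 2. In JP2CR sham it had 0.641, 0.366, 0.678 and 0.209 CPM. Col10a1, the collagen of growth-plate cartilage, had 3, 0, 3 and 0 counts in WT TAC, again in libraries 1 and 3, against 0 in every WT sham library. In JP2CR TAC it had 1, 0, 0 and 4 counts, against 0 in every JP2CR sham library. Col24a1, a fibrillar chain of developing bone, had 3, 6, 1 and 2 counts in WT TAC, against 0, 2, 1 and 2 in WT sham. WT TAC 3 stood between WT TAC 1 and 2 for 98.2% of the 166 genes over 2-fold apart between those libraries. Libraries 1 and 3 may therefore not be independent sightings, though the labels do not say that they share material. None of these chains was tested.

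Within WT TAC, WT TAC 2 was the highest library for 25 of the 36 tested chains, among them Col1a1, Col3a1, Col4a1, Col8a1 and Col12a1, against 27.2% of all tested genes. The lowest was WT TAC 1 for 19 chains and WT TAC 4 for 13. Within JP2CR TAC, JP2CR TAC 2 was the highest for 20 of the 36 chains, against 26.1% of all tested genes. In JP2CR sham 3, Col4a1, Col4a2 and Col5a3 were the lowest of their group and Col14a1, Col8a1 and Col12a1 the highest.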
